A study of Homo sapiens with 6 samples.

Results

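The 44 genes described here encode the factors that start protein synthesis on cytosolic ribosomes, together with 2 eIF4E-binding proteins that hold the cap-binding factor back. They were taken by gene symbol from a table of 60605 genes, each symbol had 1 row in it, and 43 of the 44 were abundant enough to be tested among 12829 genes. RNA was sequenced from Huh-7 cells, a human hepatoma line. All cells had first been loaded with oleic acid (100 µM, 24 h) and starved. One group of 3 libraries then received the plant flavone pectolinarigenin (100 µM, 24 h), and the other group of 3 received the vehicle DMSO (0 µM, called control here) for the same time. The cells are an established line under a lipid load, and the labels do not say whether libraries of a group were separate cultures, so every p-value below describes the spread between libraries, which may be technical.

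Initiation begins when eIF2, bound to GTP, carries the initiator tRNA to the small ribosomal subunit, which eIF1, eIF1A, eIF3 and eIF5 prepare. The eIF4F complex (eIF4E on the cap, the scaffold eIF4G and the helicase eIF4A) brings the mRNA, and after start codon recognition eIF5 triggers GTP hydrolysis and eIF5B joins the large subunit. The pathway has 2 main controls: stress kinases phosphorylate the alpha subunit of eIF2 and thereby block eIF2B, its nucleotide exchange factor, and mTORC1 phosphorylates the eIF4E-binding proteins to release eIF4E. In hepatocytes, which export large amounts of protein, both controls follow the supply of amino acids and the load on the endoplasmic reticulum. RNA levels show neither phosphorylation nor protein.

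Of the 43 tested initiation factors, 24 were higher in pectolinarigenin libraries than in control libraries, 4 were lower and 15 did not pass (edgeR quasi-likelihood test, Benjamini-Hochberg adjusted p under 0.05 over all tested genes). Over all tested genes 25.3% were called higher and 25.3% lower, 50.6% in all, so the share of factors called higher (55.8%) was above that of the whole table and the share called lower (9.30%) was below it. The median log2 fold change was 0.20 over the factors and 0.00071 over all tested genes. FPKM values of the 2 groups did not overlap for 33 factors, 28 with every pectolinarigenin library above every control library and 5 with every one below, against 33.5% and 25.4% of all tested genes in those directions (58.9% in either). The changes were small: log2 fold changes ran from -0.23 for EIF4G3 to 0.70 for EIF1.

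The groups of factors differed in their counts. The eIF3 complex had 12 of 13 subunits higher and 0 lower, with a median log2 fold change of 0.23. The eIF2B complex had 3 of 5 higher and 0 lower (median 0.25), eIF2 with eIF2A and eIF2D had 3 of 5 higher and 0 lower (median 0.18), and eIF5, eIF5B and the pair of eIF5A proteins had 2 of 4 higher and 0 lower (median 0.12, and 0.066 without pectolinarigenin library 3). The eIF4 factors, counted with the 2 eIF4E-binding proteins, had 2 of 12 higher (16.7%) and 4 lower (33.3%), against 25.3% of all tested genes in each direction. The 2 called higher were the binding protein EIF4EBP1, an inhibitor of eIF4E, and EIF4A1, whose level and change are uncertain (below). The median of the 12 was -0.065, and -0.027 without TMM scaling factors or in limma on FPKM. Their median log2 ratio of FPKM to the control mean was 0.016, -0.016 and -0.074 in pectolinarigenin libraries 1 to 3, on both sides of zero. Differences between these groups of genes were not tested.

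**Figure D1:**
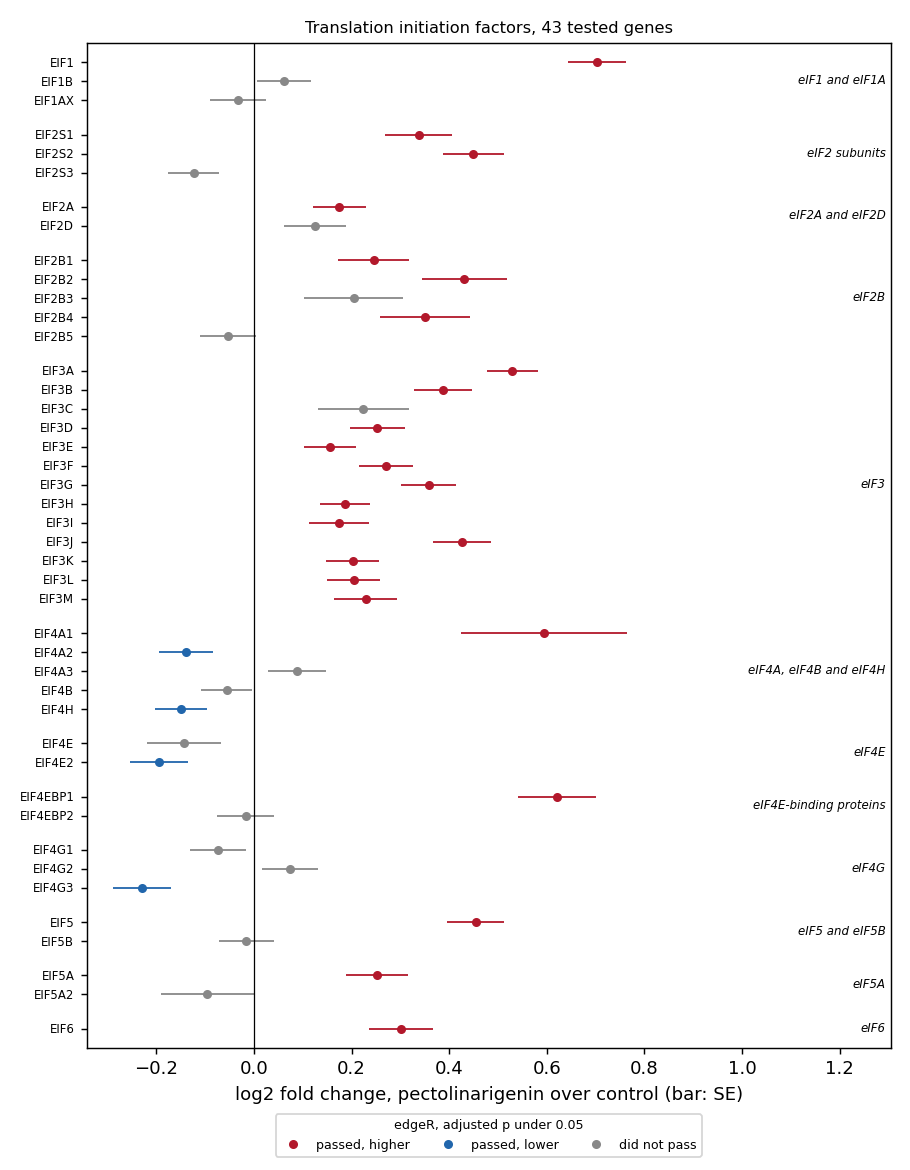
Log2 fold change of each of the 43 tested initiation factors (x axis, pectolinarigenin over control, edgeR; bars are standard errors, 3 libraries a group), ordered by group from top to bottom. Red points passed as higher, blue points as lower and grey points did not pass; 12 of 13 eIF3 subunits are red, and the 4 blue points are EIF4A2, EIF4H, EIF4E2 and EIF4G3.

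Total counts ranged from 16054283 to 20311261 in pectolinarigenin libraries and from 15140022 to 18652800 in control libraries. The first principal component (71.8% of the variance of the tested genes) separated the groups, and the second (9.64%) set pectolinarigenin library 3 apart from the other libraries. Without that library 24 factors were called higher and 5 lower, beside 3218 and 3186 of all 12829 tested genes. Hepatoma markers were abundant: the summed FPKM of 11 of 11 listed markers, among them ALB and AFP, was 9399 to 10236 in pectolinarigenin libraries and 12896 to 13097 in control libraries. The sums for listed markers of fibroblasts, endothelium and blood were at most 1.37 in pectolinarigenin libraries and at most 2.63 in control libraries, and DCN, LUM, KDR and HBB had 0 counts in all 6 libraries. Fewer cells with a transcript and less of it per cell cannot be told apart in these bulk libraries.

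Some initiation factor mRNAs begin with a terminal oligopyrimidine (TOP) motif, a C at the cap followed by a run of C or T, through which mTORC1 is known to control the translation of ribosomal protein and elongation factor mRNAs. RefSeq start windows (GRCh38.p14) were found for 37 of the 44 members, the first window listed for each symbol. Those of EIF2S2, EIF3A, EIF3E, EIF3G, EIF3H, EIF3L and EIF4EBP1 were not matched. A C followed by at least 4 letters that were each C or T stood at the annotated start of 9 of the 37 (24.3%), against 4.04% of 27305 windows of all symbols. The other 28 windows did not begin so. The 9 starts are shown because the motif is known from mRNAs of the translation machinery: each line has 15 bases before and 15 bases from the annotated start, 5′ to 3′ on the gene's strand, with the pyrimidine run from the start in capitals.
EIF3F (chr11:7987322-7987351, plus strand): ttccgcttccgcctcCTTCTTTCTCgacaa
EIF3D (chr22:36529152-36529181, minus strand): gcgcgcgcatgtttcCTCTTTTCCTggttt
EIF3K (chr19:38619173-38619202, plus strand): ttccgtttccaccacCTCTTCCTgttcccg
EIF3M (chr11:32583816-32583845, plus strand): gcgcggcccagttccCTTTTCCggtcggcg
EIF2A (chr3:150546772-150546801, plus strand): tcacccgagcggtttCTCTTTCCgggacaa
EIF2S3 (chrX:24054941-24054970, plus strand): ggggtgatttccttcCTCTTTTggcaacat
EIF2D (chr1:206612451-206612480, minus strand): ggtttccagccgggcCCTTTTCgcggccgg
EIF4A2 (chr3:186783562-186783591, plus strand): gttgggcgccgctgtCTTTTCagtcgggcg
EIF4B (chr12:53006441-53006470, plus strand): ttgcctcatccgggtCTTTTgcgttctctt

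Of these 9 genes, EIF3F, EIF3D, EIF3K, EIF3M and EIF2A were higher in pectolinarigenin libraries, EIF4A2 was lower, and EIF2S3, EIF2D and EIF4B did not pass. Their median log2 fold change was 0.175, and that of the 27 tested members with another start was 0.175. The 7 members without a matched window, all called higher, are in neither median. A match describes letters at an annotated start and does not show that the cells used it.

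Among the factors that act in scanning, EIF1, which guards the choice of start codon, had the largest log2 fold change of all members. EIF1 (ENSG00000173812, chromosome 17, 41688885 to 41692668, GRCh38) had 156.0, 168.9 and 174.2 FPKM in pectolinarigenin libraries 1 to 3, against 101.6, 97.2 and 100.0 FPKM in control libraries 1 to 3. All 3 pectolinarigenin values lay far above the control values, at 1.63-fold (log2 fold change 0.70, SE 0.059; edgeR adjusted p = 3.05e-07). Its close paralog EIF1B had 41.98, 43.98 and 43.76 FPKM in pectolinarigenin libraries and 40.83, 40.22 and 40.11 FPKM in control libraries, which do not overlap but did not pass (0.061, SE 0.055; edgeR adjusted p = 0.376). The ratio of EIF1 to EIF1B was 3.72 to 3.98 in pectolinarigenin libraries and 2.42 to 2.49 in control libraries. An exact 2-sided permutation test of this log ratio gave p = 0.1, the smallest that 3 against 3 libraries allow, and 0.12 after Benjamini-Hochberg adjustment over 6 paralog pairs. EIF1AX, the partner of EIF1 in scanning, overlapped between the groups (log2 fold change -0.032, SE 0.057). Annotated pseudogenes of EIF1AX held 12.9% as many counts as EIF1AX itself.

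The 100 bases before the annotated starts of EIF1 and EIF1B are shown as a paralog pair of which 1 member passed. Capitals mark the E-box CACGTG, which reads the same on both strands and which 7.43% of all windows (250 bases before to 50 after the start) and 10 of 37 member windows hold.
EIF1 (chr17:41688785-41688884, plus strand): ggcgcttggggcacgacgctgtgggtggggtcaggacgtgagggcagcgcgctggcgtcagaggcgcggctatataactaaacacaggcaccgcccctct
EIF1B (chr3:40309607-40309706, plus strand): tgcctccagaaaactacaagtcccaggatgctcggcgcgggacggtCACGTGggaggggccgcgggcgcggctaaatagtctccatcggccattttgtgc

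On both strands, the letters TGATGNAAN (the C/EBP-ATF element read by ATF4) were found in 0 of 37 member windows and 3.67% of all windows, and TGACGTCA (the cAMP response element) in 0 of 37 and 1.98%. CCGGAAG (an ETS motif) was found in 9 of 37 member windows and 10.7% of all. At the low shares of the first 2 motifs, 37 windows would hold few matches, so finding 0 says little. Members without a matched window, EIF4EBP1 among them, were not searched. These counts say only which letters lie in those windows.

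The subunits of eIF2 did not move as a unit. EIF2S2, the beta subunit, had 118.9, 120.7 and 133.0 FPKM in pectolinarigenin libraries, against 92.0, 84.8 and 89.2 FPKM in control libraries (log2 fold change 0.45, SE 0.062; edgeR adjusted p = 3.15e-05). Annotated pseudogenes of EIF2S2 held 9.76% as many counts as EIF2S2 itself. EIF2S1, the alpha subunit that carries the regulatory phosphorylation site, also rose, with 19.99 ± 1.66 FPKM in pectolinarigenin libraries and 15.43 ± 0.68 FPKM in control libraries (SD over 3 libraries each; log2 fold change 0.34, SE 0.069). EIF2S3, the gamma subunit that binds GTP and the initiator tRNA, had 76.7, 78.5 and 76.0 FPKM in pectolinarigenin libraries and 83.3, 82.8 and 79.1 FPKM in control libraries. Every pectolinarigenin value of EIF2S3 was below every control value, but the gene did not pass (log2 fold change -0.12, SE 0.053; edgeR adjusted p = 0.0634). It passed as lower where only genes of at least 5 FPKM were tested (edgeR adjusted p = 0.0300).

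EIF2A and EIF2D are not eIF2 subunits: both encode single proteins that can bring a tRNA to the ribosome without eIF2. EIF2A had 26.3, 28.2 and 25.8 FPKM in pectolinarigenin libraries and 23.5, 22.6 and 23.2 FPKM in control libraries (log2 fold change 0.18, SE 0.055; edgeR adjusted p = 0.0154). Its groups did not overlap, but its call was lost without control library 2 (edgeR adjusted p = 0.0802) or 3 (0.0616) or pectolinarigenin library 2 (0.0745). EIF2D, at 5.57 ± 0.14 FPKM in pectolinarigenin libraries and 4.97 ± 0.13 FPKM in control libraries (SD, n = 3 each), did not pass (edgeR adjusted p = 0.112). It passed without TMM factors (edgeR adjusted p = 0.0437) and in limma on log2(FPKM + 0.1) (0.0487).

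In eIF2B, which reloads eIF2 with GTP, the regulatory subunits EIF2B1 (alpha), EIF2B2 (beta) and EIF2B4 (delta) were higher. EIF2B2 led with 5.32, 4.67 and 5.07 FPKM in pectolinarigenin libraries against 3.31, 3.87 and 3.72 FPKM in control libraries, groups that did not overlap (log2 fold change 0.43, SE 0.087; edgeR adjusted p = 0.000809). The log2 fold changes of EIF2B4 and EIF2B1 were 0.35 (SE 0.092) and 0.25 (SE 0.072; edgeR adjusted p = 0.0106, and 0.0682 without control library 3). The subunits of the catalytic pair did not pass. EIF2B3 (gamma) was at 0.20 (SE 0.10; edgeR adjusted p = 0.110, and 0.0408 and 0.0381 in limma with pseudocounts of 1 and 0.1). EIF2B5 (epsilon), which holds the exchange activity, had 11.9, 11.2 and 11.6 FPKM in pectolinarigenin libraries and 12.1, 11.3 and 11.7 FPKM in control libraries, which overlapped (log2 fold change -0.053, SE 0.057).

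The eIF3 complex, a large scaffold that joins the small ribosomal subunit to the mRNA and to the other factors, was higher almost throughout. All 13 log2 fold changes were positive, from 0.16 (EIF3E) to 0.53 (EIF3A), and all 12 subunits that passed had every pectolinarigenin library above every control library. The summed FPKM of the 13 subunits was 451.9, 456.0 and 457.5 in pectolinarigenin libraries and 356.2, 355.3 and 358.0 in control libraries. EIF3A, the largest subunit and part of the core, had 92.5, 89.6 and 89.2 FPKM in pectolinarigenin libraries against 60.5, 61.6 and 61.0 FPKM in control libraries. This was 1.44-fold (log2 fold change 0.53, SE 0.052; edgeR adjusted p = 1.17e-06; ENSG00000107581, chromosome 10, 119033670 to 119080823, GRCh38).

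EIF3J, a loosely bound subunit that helps to place the complex on the decoding site, had 32.7, 33.0 and 35.4 FPKM in pectolinarigenin libraries and 25.02, 24.36 and 23.91 FPKM in control libraries (log2 fold change 0.43, SE 0.059; edgeR adjusted p = 3.07e-05). The next in order were EIF3B (0.39, SE 0.060), a core subunit, and EIF3G (0.36, SE 0.057), which binds RNA beside it. EIF3F, EIF3D, which can itself bind the cap of some mRNAs, and EIF3M had log2 fold changes of 0.27, 0.25 and 0.23. EIF3L and EIF3K, which neighbour each other in the complex, had log2 fold changes of 0.204 and 0.202, and EIF3H, EIF3I and EIF3E had 0.19, 0.17 and 0.16. From EIF3F downward, neighbours in this order differed by less than their standard errors.

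EIF3C was the subunit that did not pass, with 4.02, 3.80 and 3.65 FPKM in pectolinarigenin libraries and 3.09, 2.85 and 3.65 FPKM in control libraries (log2 fold change 0.22, SE 0.093; edgeR adjusted p = 0.0561). Control library 3 equalled the lowest pectolinarigenin library. The gene passed without control library 3 (edgeR adjusted p = 0.0150) or pectolinarigenin library 3 (0.0271), and with a replicate block (0.0458). It also passed without TMM factors (edgeR adjusted p = 0.0315), without an expression filter (0.0367) and with filterByExpr (0.0418). EIF3C has a nearly identical copy, EIF3CL, at 25 to 36 counts in every library and not tested, so how reads were divided between them is uncertain. The calls of EIF3E, EIF3I and EIF3M were lost without control library 2 (edgeR adjusted p = 0.0842, 0.125 and 0.0678). Those of EIF3E and EIF3I were also lost without control library 3 (0.129 and 0.101), that of EIF3E without pectolinarigenin library 2 (0.0913) and that of EIF3I without pectolinarigenin library 3 (0.0714).

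**Figure D2:**
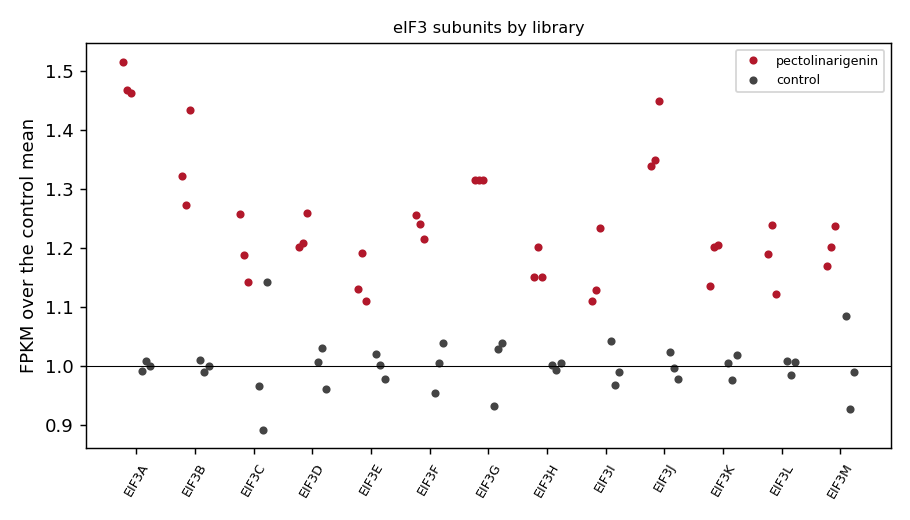
FPKM of each eIF3 subunit in each library divided by that subunit's mean over the control libraries (y axis, no unit; pectolinarigenin in red to the left, control in grey to the right; each point is 1 library). For 12 of 13 subunits all red points lie above all grey points; for EIF3C the highest grey point reaches the lowest red point.

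Deposited FPKM set the eIF3 subunits apart from each other more than the treatment did. In control libraries EIF3A stood at 61.0 ± 0.5 FPKM and EIF3K at 48.1 ± 1.1 FPKM, while EIF3F stood at 6.45 ± 0.28 FPKM and EIF3C at 3.20 ± 0.41 FPKM (SD, n = 3 each). The complex holds its subunits in like amounts, and these differences between subunits are not read as differences in RNA amount. The authors' FPKM divide by a length per gene, and EIF3F was closer to EIF3K in counts than in FPKM. In control libraries 1 to 3 EIF3F had 1735, 1831 and 1537 counts and EIF3K 2519, 2450 and 2077. EIF3E had 6543, 6448 and 5101 counts at 9.13 ± 0.20 FPKM, beside 7999, 8159 and 6561 counts for EIF3A. EIF3C was low in both measures, at 398, 368 and 383 counts. Reads lost to other copies also lower the value. Annotated pseudogenes of EIF3F, a pair named for it, held 11.5% as many counts as EIF3F itself. Whether the length or lost reads set the order of levels was not tested.

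The eIF4 factors gave the 4 falls. EIF4A2, the most abundant member by FPKM in control libraries and an RNA helicase of eIF4F, had 157.0, 166.6 and 159.6 FPKM in pectolinarigenin libraries and 179.1, 168.7 and 170.2 FPKM in control libraries (log2 fold change -0.14, SE 0.055; edgeR adjusted p = 0.0482). The groups did not overlap by a small margin, and the call held in 5 of 15 alternatives. It was lost without control library 1 (edgeR adjusted p = 0.182), 2 (0.0983) or 3 (0.112) or pectolinarigenin library 1 (0.0639), and with a replicate block (0.0553). EIF4H, which stimulates the helicase, had 49.1, 45.9 and 46.7 FPKM in pectolinarigenin libraries and 50.7, 50.8 and 51.4 FPKM in control libraries (log2 fold change -0.15, SE 0.053; edgeR adjusted p = 0.0286). Its call held in 6 of 15 alternatives and was lost without control library 1 (edgeR adjusted p = 0.0666), 2 (0.0903) or 3 (0.105) or pectolinarigenin library 2 (0.106).

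EIF4A1, the paralog of EIF4A2, had 2.52, 3.19 and 1.73 FPKM in pectolinarigenin libraries and 1.65, 1.62 and 1.46 FPKM in control libraries (log2 fold change 0.59, SE 0.17; edgeR adjusted p = 0.00913). The groups did not overlap, though pectolinarigenin library 3 stood close to the controls, and without pectolinarigenin library 2 the log2 fold change was 0.38 (edgeR adjusted p = 0.0580). The call was also lost in limma with pseudocounts of 1 and 0.1 (limma adjusted p = 0.0527 and 0.0510). In GENCODE 29, 48.6% of the exon bases of EIF4A1 are shared with other genes on the same strand, among them the readthrough gene SENP3-EIF4A1, and its 13 annotated pseudogenes held 1467 counts against 1095 for EIF4A1 over the 6 libraries. Its level and its change are therefore uncertain. So is its ratio to EIF4A2, 0.0108 to 0.0191 in pectolinarigenin libraries and 0.00858 to 0.00960 in control libraries (exact 2-sided permutation p = 0.1, the smallest possible; adjusted over the 6 pairs 0.12). EIF4A3, a helicase of the exon junction complex rather than of eIF4F, and EIF4B, which stimulates eIF4A, did not pass (log2 fold changes 0.087 and -0.056), and their groups overlapped.

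Of the cap-binding proteins, EIF4E2, a cap-binding repressor that does not bind eIF4G, had 13.4, 13.4 and 14.6 FPKM in pectolinarigenin libraries and 15.1, 15.8 and 15.2 FPKM in control libraries. It fell by 0.20 on the log2 scale (SE 0.059; edgeR adjusted p = 0.0125), a call lost without control library 2 (0.0685) or pectolinarigenin library 2 (0.0542). EIF4E itself had 7.09, 7.69 and 8.22 FPKM in pectolinarigenin libraries and 8.33, 7.82 and 8.66 FPKM in control libraries, with overlap (log2 fold change -0.14, SE 0.076; edgeR adjusted p = 0.130, and 0.0226 without pectolinarigenin library 3). The ratio of EIF4E to EIF4E2 overlapped between the groups (exact 2-sided permutation p = 0.6; adjusted over the 6 pairs 0.6). Annotated pseudogenes of EIF4E held 24.6% as many counts as EIF4E itself, so its level and this ratio are less certain. EIF4E3 was at 4 to 10 counts in pectolinarigenin libraries and 3 to 13 in control libraries and was not tested.

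EIF4EBP1, an inhibitor that covers the eIF4G site of eIF4E until mTORC1 phosphorylates it, had 60.2, 67.1 and 73.0 FPKM in pectolinarigenin libraries, against 40.0, 45.3 and 41.8 FPKM in control libraries. The groups lay far apart, at 1.54-fold (log2 fold change 0.62, SE 0.081; edgeR adjusted p = 1.76e-05; ENSG00000187840, chromosome 8, 38030341 to 38060365, GRCh38). EIF4EBP2, the second such inhibitor, had 49.5, 46.2 and 42.9 FPKM in pectolinarigenin libraries and 45.4, 46.1 and 45.1 FPKM in control libraries, with overlap (log2 fold change -0.017, SE 0.058). EIF4EBP1 was at 1.22 to 1.70 times EIF4EBP2 in pectolinarigenin libraries and at 0.880 to 0.984 times in control libraries (exact 2-sided permutation p = 0.1, the smallest possible; adjusted over the 6 pairs 0.12).

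**Figure D3:**
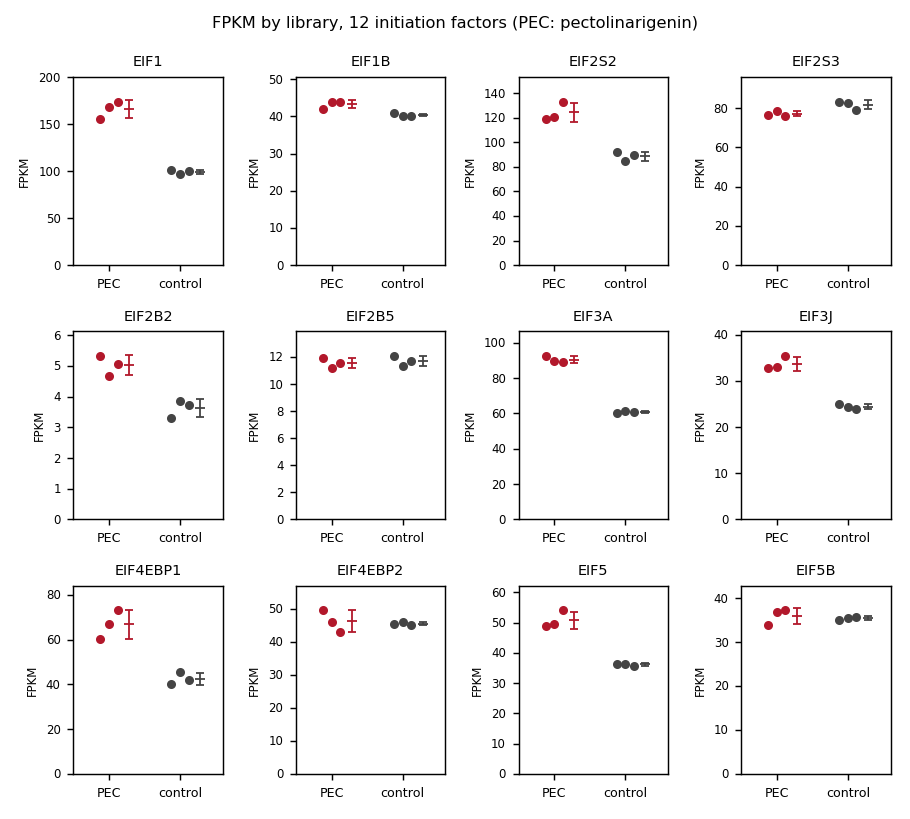
FPKM (y axis, from 0) of 12 initiation factors in each library, with pectolinarigenin (PEC, red) left of control (grey); points are libraries and the bar beside them is the mean ± SD (n = 3 each). EIF1, EIF2S2, EIF2B2, EIF3A, EIF3J, EIF4EBP1 and EIF5 are higher in every pectolinarigenin library, while EIF2B5, EIF4EBP2 and EIF5B overlap.

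Among the scaffolds, EIF4G3 had 15.5, 14.1 and 13.6 FPKM in pectolinarigenin libraries and 16.9, 16.2 and 16.1 FPKM in control libraries (log2 fold change -0.23, SE 0.059; edgeR adjusted p = 0.00465). Its groups did not overlap, and of the 4 falls it was the one that passed in all 15 alternatives. EIF4G1, its more abundant paralog, overlapped between groups, with 69.5 ± 3.6 FPKM in pectolinarigenin libraries and 71.2 ± 2.7 FPKM in control libraries (SD over 3 libraries each; log2 fold change -0.073, SE 0.057). The log2 ratio of EIF4G1 to EIF4G3 was 0.16 higher in pectolinarigenin libraries (exact 2-sided permutation p = 0.1, the smallest possible; adjusted over the 6 pairs 0.12). EIF4G2, a related scaffold that does not bind eIF4E, did not pass (0.075, SE 0.057).

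EIF5, which makes eIF2 hydrolyse its GTP at the start codon, had 48.8, 49.6 and 54.1 FPKM in pectolinarigenin libraries, against 36.5, 36.4 and 35.7 FPKM in control libraries. It stood at 1.37-fold with well separated groups (log2 fold change 0.45, SE 0.059; edgeR adjusted p = 1.66e-05; ENSG00000100664, chromosome 14, 103333544 to 103345025, GRCh38). EIF5B, which joins the large ribosomal subunit, overlapped, with 36.0 ± 1.8 FPKM in pectolinarigenin libraries and 35.5 ± 0.4 FPKM in control libraries (SD over 3 libraries each; log2 fold change -0.016, SE 0.056).

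EIF5A, which despite its name acts mainly in elongation and termination, had 131.2, 133.6 and 151.0 FPKM in pectolinarigenin libraries and 112.4, 112.4 and 115.6 FPKM in control libraries (log2 fold change 0.25, SE 0.063; edgeR adjusted p = 0.00397). Its paralog EIF5A2 was low, at 2.85 ± 0.15 FPKM in pectolinarigenin libraries and 2.97 ± 0.24 FPKM in control libraries (SD, n = 3 each), and did not pass. The ratio of EIF5A to EIF5A2 was 43.5 to 55.1 in pectolinarigenin libraries and 34.7 to 40.9 in control libraries (exact 2-sided permutation p = 0.1, the smallest possible; adjusted over the 6 pairs 0.12). EIF6, which keeps the large ribosomal subunit from joining too early, had 63.8, 66.0 and 72.6 FPKM in pectolinarigenin libraries and 50.5, 55.8 and 54.1 FPKM in control libraries. The groups of EIF6 did not overlap (log2 fold change 0.30, SE 0.066; edgeR adjusted p = 0.00145).

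Over 6 lists of regulators and partners of these factors, 30 of 68 tested genes were higher (44.1%) and 15 lower (22.1%), against 25.3% of all tested genes in each direction, so the share called lower was near that of the whole table. Of 14 tested genes that control phosphorylation of eIF2 or read it out, 6 were higher (42.9%) and 3 lower (21.4%). NCK1, among those higher, passed in 8 of 15 alternatives. PPP1R15A, a stress-induced subunit that directs phosphatase 1 to eIF2, had 44.1, 39.9 and 42.7 FPKM in pectolinarigenin libraries, against 9.37, 8.15 and 9.61 FPKM in control libraries. That is 4.56-fold (log2 fold change 2.19, SE 0.072; edgeR adjusted p = 1.58e-11), with groups far apart. Its constitutive counterpart PPP1R15B rose by 0.43 (SE 0.058), and ATF4, a transcription factor whose translation rises when eIF2 is phosphorylated, by 0.69 (SE 0.058). DNAJC3, an inhibitor of eIF2 kinases, and PPP1CA, a catalytic subunit of phosphatase 1, had log2 fold changes of 0.23 and 0.22 and passed, while GCN1, an activator of EIF2AK4, was lower (-0.20). The call of PPP1CA was lost without control library 1 (edgeR adjusted p = 0.0620), and that of GCN1 in limma with pseudocounts of 1 and 0.1 (limma adjusted p = 0.0502 and 0.0518). None of the 4 eIF2 kinases passed as higher. EIF2AK1 and EIF2AK3 did not pass (-0.083 and -0.067), and EIF2AK2 and EIF2AK4 were lower (-0.21 and -0.32). The call of EIF2AK2 held in 5 of 15 alternatives and was lost without each of control libraries 1 to 3 (edgeR adjusted p = 0.0843, 0.0895 and 0.109) and without pectolinarigenin library 2 (0.145) or 3 (0.0788). Its FPKM groups overlapped. The call of EIF2AK4 was lost without control library 1 (edgeR adjusted p = 0.0547) and in limma with pseudocounts of 1 and 0.1 (limma adjusted p = 0.0988 and 0.0994).

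Of 17 tested genes of mTORC1 signalling to initiation, 7 were higher (41.2%) and 5 lower (29.4%, near the 25.3% of all tested genes). RPS6KB2, among those higher, passed in 12 of 15 alternatives. DDIT4, which restrains mTORC1 under stress, had 48.08, 43.95 and 72.48 FPKM in pectolinarigenin libraries and 23.89, 24.98 and 25.73 FPKM in control libraries (log2 fold change 1.11, SE 0.14; edgeR adjusted p = 1.26e-05). SESN2, a leucine sensor that also restrains mTORC1, rose by 0.51 (SE 0.078), TSC2 by 0.50 (SE 0.088) and the complex subunit MLST8 by 0.50 (SE 0.088). Genes of the same kinds fell: SESN3, a relative of SESN2, by 0.39 on the log2 scale (SE 0.081), the complex subunit RPTOR by 0.31 (SE 0.072) and AKT1S1, an inhibitory subunit, by 0.23 (SE 0.064). PDCD4, which holds eIF4A inactive, fell to 48.3, 48.1 and 51.5 FPKM in pectolinarigenin libraries, against 71.7, 70.0 and 71.2 FPKM in control libraries (log2 fold change -0.56, SE 0.055; edgeR adjusted p = 1.26e-06). EEF2K, the kinase that inhibits elongation factor 2, fell by 0.57 on the log2 scale (SE 0.071). MTOR did not pass (0.068, SE 0.085; edgeR adjusted p = 0.532), though it did without pectolinarigenin library 3 (0.17; edgeR adjusted p = 0.0244).

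Of 15 tested eIF4E kinases and cap-complex partners, 4 were higher (26.7%, near the 25.3% of all tested genes) and 6 lower (40.0%), with a median of -0.087. PAIP1, among those higher, passed in 11 of 15 alternatives. Both kinases of eIF4E rose, MKNK2 by 0.37 (SE 0.057) and MKNK1 by 0.26 (SE 0.078). PAIP2, a repressor of the poly(A)-binding protein, rose by 0.32 (SE 0.063), while its paralog PAIP2B fell by 0.54 on the log2 scale (SE 0.088). The other genes called lower were EIF4ENIF1, which carries eIF4E into the nucleus (-0.26), CTIF (-0.23) and NCBP2 (-0.20), which act at the nuclear cap-binding complex, GIGYF2, a partner of EIF4E2 (-0.17), and the poly(A)-binding protein PABPC4 (-0.13). Of these, NCBP2 passed in all alternatives run. Leaving out single libraries ended the calls of EIF4ENIF1 (edgeR adjusted p = 0.165 without control library 2 and 0.0581 without pectolinarigenin library 3) and CTIF (0.0671 without control library 1). Limma with pseudocounts of 1 and 0.1 ended them too (limma adjusted p = 0.101 and 0.0976 for EIF4ENIF1, 0.0800 and 0.0796 for CTIF). EIF4ENIF1 also did not pass without TMM factors (edgeR adjusted p = 0.0528). The call of GIGYF2 was lost without control library 1 (edgeR adjusted p = 0.0855), 2 (0.0915) or 3 (0.0623) or pectolinarigenin library 2 (0.0754) or 3 (0.0709). That of PABPC4 was lost without control library 1 (edgeR adjusted p = 0.0992), 2 (0.142) or 3 (0.135) or pectolinarigenin library 2 (0.105), and with a replicate block (0.0693). PABPC1, the main poly(A)-binding protein, had a log2 fold change of -0.013 (SE 0.057).

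The other initiation and recycling factors had 6 of 10 tested genes higher and 0 lower, against 25.3% of all tested genes in each direction. The largest log2 fold changes among them were those of the ribosome splitting factor ABCE1 (0.32, SE 0.057), DENR (0.26, SE 0.062) and BZW1, an eIF5 mimic (0.25, SE 0.063). Of 10 tested elongation and release factors, 7 were higher (70.0%) and 1 lower (10.0%), against the same 25.3% of all tested genes in each direction. Among those higher, EEF1E1 and EEFSEC each passed in 9 of 15 alternatives and EEF1D in 13. EEF1B2, the exchange factor of elongation factor 1A, rose by 0.44 (SE 0.056), the release factor ETF1 by 0.33 (SE 0.060) and the ribosome rescue factor PELO by 0.32 (SE 0.066), while HBS1L, the partner of PELO, fell by 0.34 on the log2 scale (SE 0.056). DHPS and DOHH, the enzymes that place hypusine on eIF5A, had log2 fold changes of 0.17 and 0.26 and did not pass (edgeR adjusted p = 0.103 and 0.0560). DHPS passed without pectolinarigenin library 3 (edgeR adjusted p = 0.0335). DOHH passed in 4 of 15 alternatives, without TMM factors (edgeR adjusted p = 0.0307), with filterByExpr (0.0453) and in limma with pseudocounts of 1 (0.0162) and 0.1 (0.0163).

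**Figure D4:**
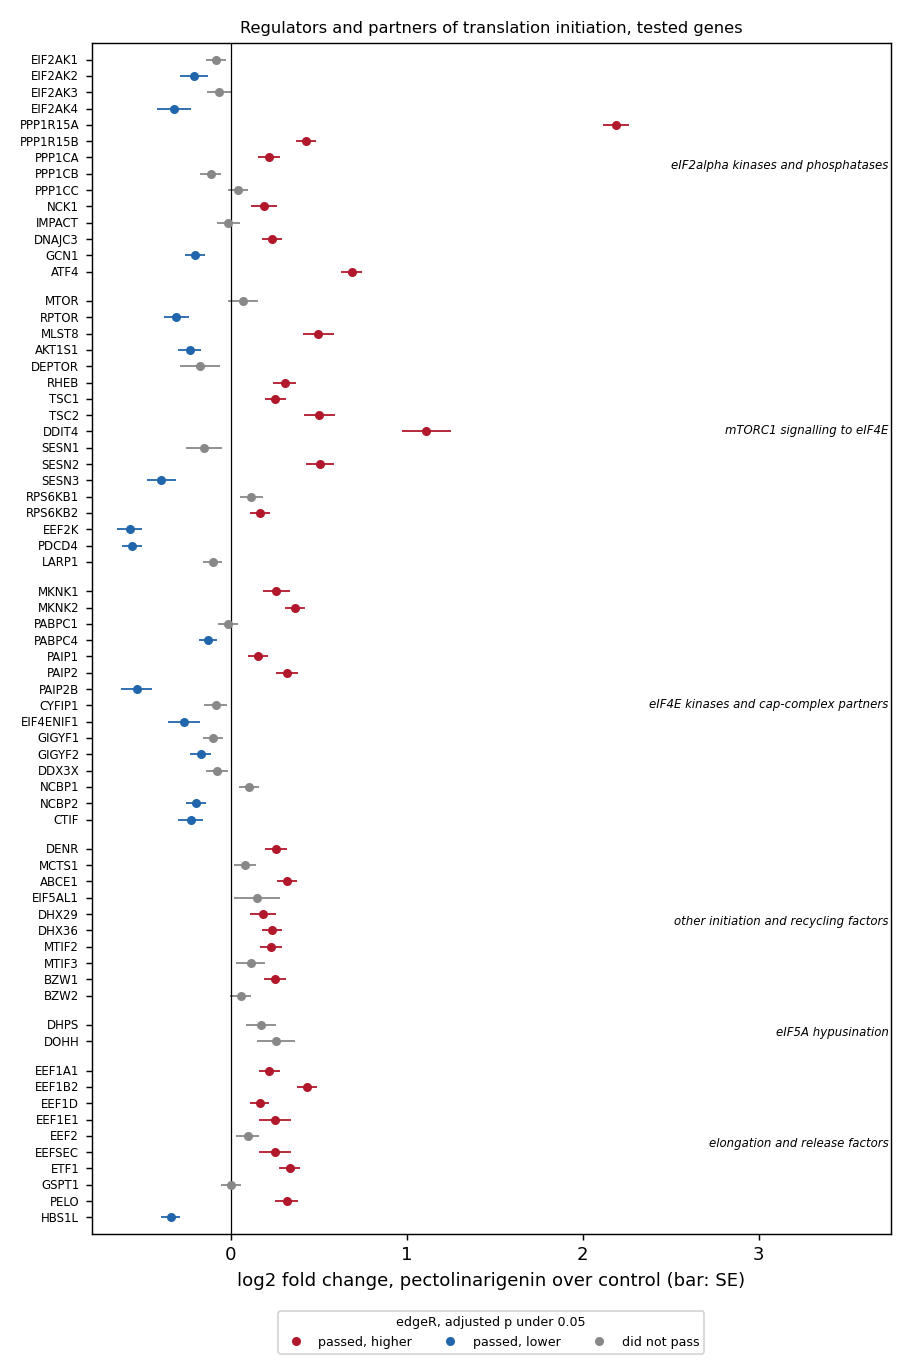
Log2 fold change of the 68 tested genes in 6 lists of regulators and partners of initiation (x axis, pectolinarigenin over control, edgeR; bars are standard errors, 3 libraries a group). Red points passed as higher (30), blue points as lower (15) and grey points did not pass; PPP1R15A at 2.19 and DDIT4 at 1.11 lie farthest to the right.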

How the data were processed

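The deposited table held raw counts per Ensembl gene and the authors' FPKM (counts scaled by gene length and by the library's total) for each library, per the file headers. Cutadapt 1.9.1, HISAT2 2.0.1, HTSeq 0.6.1 and GRCh38 are named in the submitters' processing notes. Not given in the sources used here are the strand setting, the annotation release and how shared reads were handled.

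Counts of the 6 libraries went into a single edgeR fit (version 4.0.16, R 4.3.3) with TMM factors and without covariates, tested 2-sided by quasi-likelihood. Genes with a mean FPKM of at least 1 were tested, and p-values were adjusted over all of them at 0.05. FPKM are printed as deposited, and fold changes come from the fit. SE are derived from the F statistic. The 15 alternatives used edgeR, DESeq2 1.42.0 or limma 3.58.1 on log2(FPKM + 1) and log2(FPKM + 0.1). Libraries of a group differed beyond sampling noise, pectolinarigenin libraries more than control libraries. Chi-square per degree of freedom was 1.50 to 2.56 between control libraries and 4.10 to 9.85 between pectolinarigenin libraries, largest for pairs with library 3. The fit was tested on simulated data. Gene positions are from GENCODE 29. The members and the gene lists were chosen with earlier results of these data known. Values in every library are given for called members with an absolute log2 fold change of at least 0.4, for the leading called member of each group and for paralogs; from the other lists, genes called with the largest changes are named. Any other gene or library value was chosen after its values were seen.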

Additional observations from a re-analysis of the deposited data

How the results depend on the processing

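Of the 24 factors called higher, 18 passed in the same direction in every alternative that tested them. EIF2B2 and EIF2B4 were tested in 14 of the 15 alternatives, and the rest of these 18 in all 15. Of the 4 called lower 1 did, and of the 15 that did not pass 10 stayed so. No called value changed sign in any alternative that was run. The factors called lower numbered 2 without TMM factors, 2 in limma with either pseudocount, 2 without an expression filter and 2 with filterByExpr, and 1 to 5 without single libraries. Genes of the whole table called lower numbered 3243 in the main fit, 2820 without TMM factors, and 2590 and 2561 in limma. They numbered 3705 without a filter, 3741 with filterByExpr and 2664 to 3265 without single libraries. The factors called higher numbered 20 to 26, and genes of the whole table called higher 2088 to 4111. Testing only genes of at least 5 FPKM called 2088 genes of the table higher and 2010 lower, since fewer were tested. It gave medians of 0.081 for eIF2B, 0.24 for eIF5 and 0.16 for all factors, over fewer members. Limma called 8 regulators lower with either pseudocount, against 15 in the main fit. It also called fewer genes of the whole table lower (2590 and 2561, against 3243), and the cause was not tested. The eIF3 median was 0.27 without TMM factors, 0.25 and 0.27 in limma with pseudocounts of 1 and 0.1, 0.25 without a filter and 0.19 to 0.25 without single libraries. Without TMM factors the median over all factors was 0.24 and that of all tested genes 0.038. Without single libraries the median over all factors was 0.16 to 0.21 and that of eIF5 0.066 to 0.16. Same-numbered libraries did not deviate together (correlations -0.0025, 0.016 and 0.0018), so the numbers are not read as pairs. With a replicate block 25 factors were called higher and 3 lower, beside 3249 and 3291 genes of the whole table. At these depths 3 counts correspond to 0.148 to 0.198 CPM, for counting error only.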
